A study of Mus musculus with 9 samples.

Results

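Phospholipid flippases, with Atp8b4 as the leading gene, were followed across 3 groups of cells labelled C1498. This line is known as a mouse acute myeloid leukaemia, although most myeloid markers were low on these arrays, as described below. The 8 genes were Atp8b4, Atp8a1, Atp8b1, Atp8b2, Atp11a and Atp11b, which encode flippases, Tmem30a, which encodes their shared subunit, and Xkr8, which encodes a scramblase. They are 8 of the 19505 genes with a named probe set. All 8 were measured, each by 1 probe set, so taking the probe set with the highest mean left no choice to make. The genes were chosen by the log2 levels of the 3 groups on these same arrays, after the level of Atp8b4 had been seen to differ between them. The differences of these genes between the groups are therefore given as a description, without a p-value.

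Flippases of the P4-ATPase family use ATP to move phosphatidylserine and other phospholipids from the outer to the inner leaflet of a membrane. Most of them leave the endoplasmic reticulum and work only when bound to a CDC50 subunit, of which Tmem30a (CDC50A) is the most widely used. Scramblases such as Xkr8, which caspases switch on in dying cells, let lipids cross in both directions, and exposed phosphatidylserine then marks the cell for uptake by phagocytes.

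The 9 arrays comprised 3 each of cells with a negative control construct (Scr), with hairpin sequence C against Zeb1 (shZeb1_C) and with hairpin sequence D (shZeb1_D). All groups, Scr included, had been infected overnight with lentivirus that also carried GFP, and GFP-positive cells were collected 2 weeks later. The labels name no clone, no further allele and no separate infections, so the spread between arrays may be technical. Total RNA was hybridised to 1-colour arrays, and levels are given as log2 of the RMA signal, a background-corrected and normalised intensity on which a step of 1 is a doubling.

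Array medians lay between 6.97 and 7.16. Zeb1, the targeted gene, stood at 10.52, 10.29 and 10.56 in Scr, 10.41, 10.01 and 10.34 in shZeb1_C and 9.56, 9.26 and 9.40 in shZeb1_D. In shZeb1_D it fell to 48.3% of the Scr level (log2 difference -1.05 ± 0.16 SE, limma adjusted p = 0.0263), while shZeb1_C overlapped Scr (-0.20 ± 0.16, limma adjusted p = 0.895). The haematopoietic gene Ptprc lay between 14.40 and 15.31, but 7 of 9 measured myeloid markers were below the median level of all probe sets (7.10). Spi1, a defining myeloid factor, lay between 5.00 and 5.72, while Cd3e, a T cell receptor component, lay between 13.41 and 15.32. Most of these markers thus do not bear out the myeloid name of the line, and what the cells are was not tested. The summed level of the myeloid markers was 11.92 to 12.37 in Scr, 9.63 to 9.79 in shZeb1_C and 11.33 to 11.68 in shZeb1_D, and this drop in shZeb1_C was that of 1 gene, Fcgr3 (-4.10), since the other 8 differed by -0.11 to 0.17 and 6 of them were higher. The summed level of 9 T and NK markers was 16.06 to 16.51, 16.30 to 16.55 and 15.89 to 16.05 in the same order. Within groups, arrays also deviated together. The first principal component of the deviations from group means held 57.9% of their variation and set 5 arrays (Scr 7 and 9, shZeb1_C 10 and 11, shZeb1_D 13; set A) apart from 4 (Scr 8, shZeb1_C 12, shZeb1_D 14 and 15; set B). The sets come from the values, not from the labels, so they served only as a covariate and to give differences within a set. An SE with this covariate leaves out the shared deviation that made the sets, so it is a description and not a measure of precision.

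Atp8b4, a P4-ATPase of the same subgroup as Atp8b1 and Atp8b2, was the member with by far the widest range. Its log2 level was 10.13, 10.70 and 10.50 in Scr, 13.42, 12.17 and 10.88 in shZeb1_C, and 6.27, 6.23 and 5.85 in shZeb1_D. The groups did not overlap: every shZeb1_D array lay at least 3.86 below every Scr array, while the lowest shZeb1_C array stood 0.18 above the highest Scr array. The group means were 10.44 ± 0.29 (SD, n = 3), 12.16 ± 1.27 and 6.12 ± 0.23; group means are given in the order Scr, shZeb1_C, shZeb1_D throughout. The order of the group means was thus shZeb1_C, Scr and shZeb1_D, and the step from Scr to shZeb1_C, 1.71, compares with an SD of 1.27 within shZeb1_C. In bulk RNA, fewer cells that express the gene and less RNA per cell cannot be told apart.

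Against Scr, Atp8b4 in shZeb1_D differed by -4.33 ± 0.52 (SE from limma), which left 4.98% of the Scr signal, a 20.1-fold lower level. In shZeb1_C it differed from Scr by 1.71 ± 0.52, which is 3.28 times the Scr signal. Between the hairpins the difference was -6.04 ± 0.52, a 65.8-fold lower signal in shZeb1_D. The SE of 0.52 is drawn from the spread in all 3 groups, which for Atp8b4 was widest in shZeb1_C. With only the 6 compared arrays in the fit, the SE was 0.21 for shZeb1_D against Scr and 0.58 for shZeb1_C against Scr. The level in shZeb1_D was below the median of all probe sets, and no detection call was used here, so how much of the remaining signal is background is unknown.

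The opposite signs of Atp8b4 under hairpins against the same target were set beside the arrays that deviate together. Within set A the shZeb1_C difference from Scr was 2.48, and within set B, where Scr and shZeb1_C have 1 array each, it was 0.18. The shZeb1_D difference from Scr was -4.05 within set A, which has 1 shZeb1_D array, and -4.66 within set B. Without shZeb1_C replicate 12 the shZeb1_C difference was 2.35, and without shZeb1_C replicate 10 it was 1.08. Of the myeloid markers, Fcgr3 alone was called in shZeb1_C against Scr, at 12.19, 11.75 and 11.68 in Scr, 7.80, 7.87 and 7.66 in shZeb1_C and 10.93, 10.99 and 11.37 in shZeb1_D. The NK cell gene Nkg7 stood at 4.49, 4.32 and 4.94 in Scr, at 9.11, 9.79 and 12.65 in shZeb1_C, and at 4.63, 6.12 and 4.81 in shZeb1_D. Of the other T and NK markers, Gzmb was also called in shZeb1_C against Scr. It stood at 6.41, 5.75 and 6.02 in Scr and at 11.09, 8.78 and 11.31 in shZeb1_C. Klrb1c, which was not called, stood at 6.86, 4.75 and 5.14 in Scr and at 7.35, 7.07 and 6.87 in shZeb1_C. The rest of the list was not called, and its differences from Scr in shZeb1_C ran from -0.94 (Cd3d) to 0.27 (Cd3e). Among them Ncr1 differed by 0.08 and Cd8a by 0.10. Over the shZeb1_C arrays Nkg7 and Klrb1c did not follow one order. Nkg7 was highest on replicate 12, where Atp8b4 was lowest, and Klrb1c was highest on replicate 10, where Atp8b4 was highest. The part of these markers in the Atp8b4 difference was not tested.

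**Figure D1:**
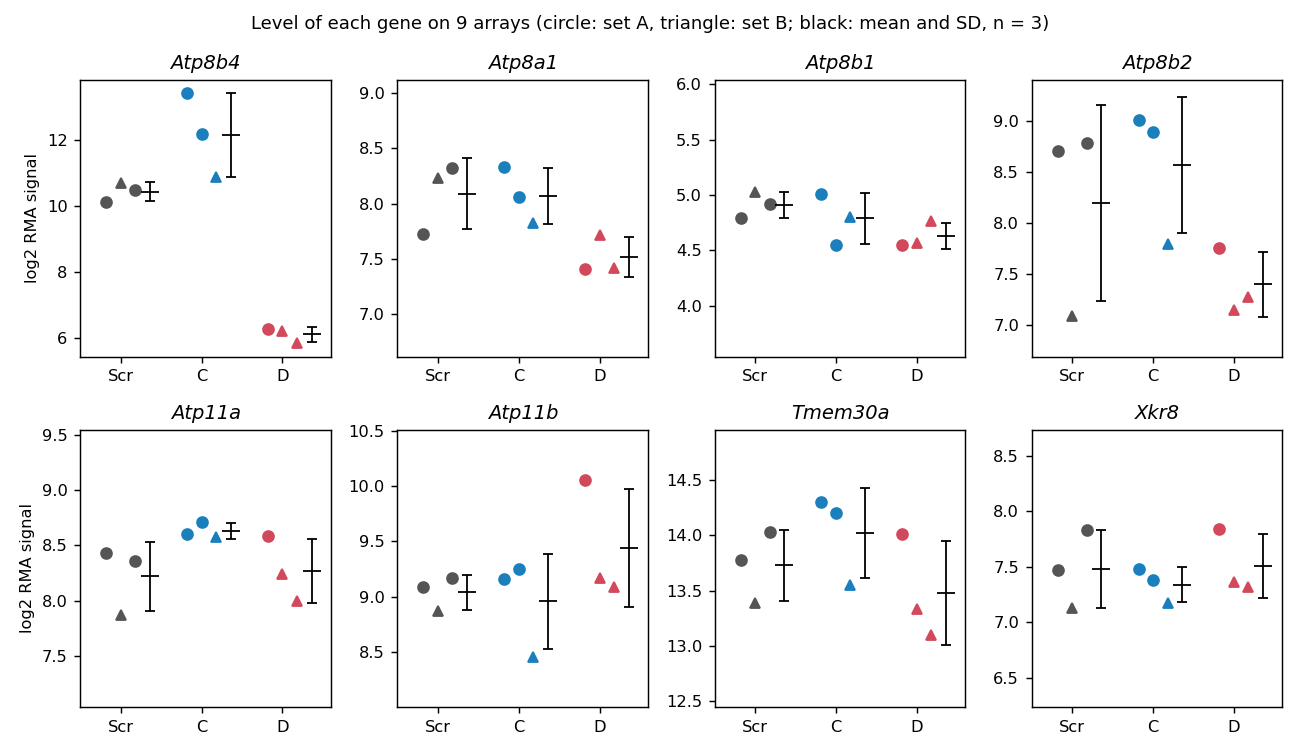
Level of each of the 8 genes on the 9 arrays (vertical axis: log2 RMA signal, with its own range in each panel; horizontal axis: group), with circles for arrays of set A, triangles for set B and the mean and SD (n = 3) in black. Atp8b4 separates the groups, at 5.85 to 6.27 in shZeb1_D against 10.13 to 10.70 in Scr, while in Atp8b2 and Tmem30a the triangles lie lowest in each group.

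The 250 bases before the start site are shown for 3 members, because Zeb1 is known to bind the E-box letters CACCTG, which read CAGGTG on the other strand. Atp8b4 is shown as the gene with the largest difference, and Atp8b2 and Atp11b as the members whose windows hold these letters, which are in capitals. The sequences are from RefSeq (GRCm38.p6) and run 5′ to 3′ towards the start site.
Atp8b4, chr2:126491554-126491803, minus strand: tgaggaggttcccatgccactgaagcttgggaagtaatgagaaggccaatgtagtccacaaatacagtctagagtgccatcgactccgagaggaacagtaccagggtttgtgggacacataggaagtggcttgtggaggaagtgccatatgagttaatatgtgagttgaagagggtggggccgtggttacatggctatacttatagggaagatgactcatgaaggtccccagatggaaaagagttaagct
Atp8b2, chr3:89960598-89960847, minus strand: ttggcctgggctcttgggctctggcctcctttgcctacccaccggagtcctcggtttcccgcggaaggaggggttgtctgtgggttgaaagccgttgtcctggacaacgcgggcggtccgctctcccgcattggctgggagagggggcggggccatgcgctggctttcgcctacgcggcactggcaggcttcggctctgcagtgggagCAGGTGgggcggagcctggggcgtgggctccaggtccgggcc
Atp11b, chr3:35753813-35754062, plus strand: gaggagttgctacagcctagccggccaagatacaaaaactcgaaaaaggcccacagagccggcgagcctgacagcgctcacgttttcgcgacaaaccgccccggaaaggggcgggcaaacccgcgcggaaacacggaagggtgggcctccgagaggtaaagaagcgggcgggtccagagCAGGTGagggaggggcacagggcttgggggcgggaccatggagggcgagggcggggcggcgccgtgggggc
RefSeq windows were at hand for 6 of the 8 members, 7 windows in all because Atp8b2 has a pair of start sites. The E-box letters, searched on both strands, were in 2 of the 7 windows, and in 17.2% of 32851 windows of the same length over all genes. The match began 42 bases before the start in the Atp8b2 window shown and 71 bases before it in Atp11b. The letters were not in the Atp8b4 window. This window also had the lowest G and C content of the 7, 48.0% with 3 CpG pairs, against 62.8% to 74.4% with 19 to 29 CpG pairs in the others. These matches describe letters and say nothing of binding.

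The other members of the Atp8 subgroup differed by far less. Atp8a1, a phosphatidylserine flippase of endosomes and secretory membranes, stood at 7.73, 8.23 and 8.32 in Scr, 8.33, 8.06 and 7.83 in shZeb1_C and 7.41, 7.72 and 7.42 in shZeb1_D. Scr and shZeb1_C overlapped throughout, and all 3 shZeb1_D arrays were lower than both, although by no more than 0.01 from the nearest Scr array and 0.11 from the nearest shZeb1_C array. The shZeb1_D difference was -0.58 ± 0.21 (SE) from Scr and -0.56 ± 0.21 from shZeb1_C, and the shZeb1_C difference from Scr was -0.02 ± 0.21. It was the member least tied to the shared array deviation (r = 0.03 over 9 arrays), and with the array set as a covariate its shZeb1_D difference from Scr was again -0.58.

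Atp8b2, which is known to flip phosphatidylcholine, stood at 8.71, 7.09 and 8.79 in Scr, 9.01, 8.90 and 7.80 in shZeb1_C and 7.76, 7.15 and 7.28 in shZeb1_D. One array in Scr and 1 in shZeb1_C, both of set B, lay more than a log2 unit below their fellows. The shZeb1_D arrays overlapped Scr through that Scr array and lay just below shZeb1_C, 0.04 apart. Differences from Scr were 0.37 ± 0.48 in shZeb1_C and -0.80 ± 0.48 in shZeb1_D, and -1.17 ± 0.48 between the hairpins. With the array set as a covariate the shZeb1_D difference from Scr was -0.43 ± 0.22, and within sets it was -0.99 and 0.12, so its sign depended on the set.

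Atp8b1, a flippase of the canalicular membrane of hepatocytes whose loss causes familial cholestasis, was the member with the lowest signal and lay below the median of all probe sets. It stood at 4.79, 5.03 and 4.92 in Scr, 5.01, 4.55 and 4.80 in shZeb1_C and 4.55, 4.57 and 4.76 in shZeb1_D. The shZeb1_D arrays were below the Scr arrays, with 0.03 between the nearest of them, and the shZeb1_C arrays spanned both. The differences from Scr were -0.13 ± 0.16 and -0.29 ± 0.16.

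For neither Atp11 flippase was shZeb1_D the group with the lowest mean. Atp11a, a phosphatidylserine flippase of the plasma membrane that caspases cleave, stood at 8.43, 7.87 and 8.36 in Scr, 8.60, 8.71 and 8.57 in shZeb1_C and 8.58, 8.24 and 8.00 in shZeb1_D. The 3 shZeb1_C arrays were above all Scr arrays, by 0.14 at the nearest, and shZeb1_D overlapped both. The differences from Scr were 0.41 ± 0.20 (SE) and 0.05 ± 0.20. Atp11b, a flippase of endosomes, stood at 9.09, 8.87 and 9.17 in Scr, 9.16, 9.25 and 8.46 in shZeb1_C and 10.05, 9.17 and 9.09 in shZeb1_D. All 3 groups overlapped, and the mean of shZeb1_D was raised by its array of set A. Its shZeb1_D difference from Scr was 0.39 ± 0.29, or 0.61 ± 0.17 with the array set as a covariate, with 0.92 within set A and 0.26 within set B. The smaller SE follows from how the sets were made and is a description.

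Tmem30a, the subunit the flippases share, stood at 13.78, 13.39 and 14.03 in Scr, 14.30, 14.20 and 13.55 in shZeb1_C and 14.01, 13.33 and 13.10 in shZeb1_D. The groups overlapped, and in each of them the arrays of set B were the lowest. Differences from Scr were 0.28 ± 0.29 and -0.25 ± 0.29 (SE), and with the array set as a covariate they were 0.28 ± 0.14 and -0.03 ± 0.15. Xkr8 stood at 7.47, 7.13 and 7.83 in Scr, 7.48, 7.38 and 7.17 in shZeb1_C and 7.84, 7.36 and 7.32 in shZeb1_D. Its groups overlapped too, with differences from Scr of -0.13 ± 0.22 and 0.03 ± 0.22.

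Of the 8 members, limma called 0 in shZeb1_C against Scr at an adjusted p under 0.05, where it called 0.945% of 19572 probe sets, 0.659% higher and 0.286% lower. It called 1, Atp8b4, lower in shZeb1_D against Scr (0.843% of probe sets called, 0.399% higher and 0.445% lower) and 1, again Atp8b4, lower in shZeb1_D against shZeb1_C (0.848% called, 0.307% higher and 0.542% lower). The contrasts are those the members were chosen with, so nothing is read from these counts. The call in shZeb1_D against Scr was lost without Scr replicate 9 or shZeb1_D replicate 15, and an added call in shZeb1_C appeared without shZeb1_C replicate 12; the call between the hairpins held whichever array was left out. The median difference of the members was 0.13 in shZeb1_C and -0.27 in shZeb1_D against Scr, beside 0.00 and 0.04 over all probe sets. Without Atp8b4 the medians were -0.02 and -0.25. Arrays did not overlap for 2 members in shZeb1_C against Scr, both higher (Atp8b4 and Atp11a), beside 14.2% of all probe sets, 7.5% higher and 6.74% lower. In shZeb1_D against Scr they did not overlap for 3, all lower (Atp8b4, Atp8a1 and Atp8b1), beside 17% of all probe sets, 10.3% higher and 6.65% lower. Between the hairpins they did not overlap for 3, all lower in shZeb1_D (Atp8b4, Atp8a1 and Atp8b2), beside 15.2% of all probe sets, 8.99% higher and 6.26% lower. The comparisons with Scr share the same control arrays.

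**Figure D2:**
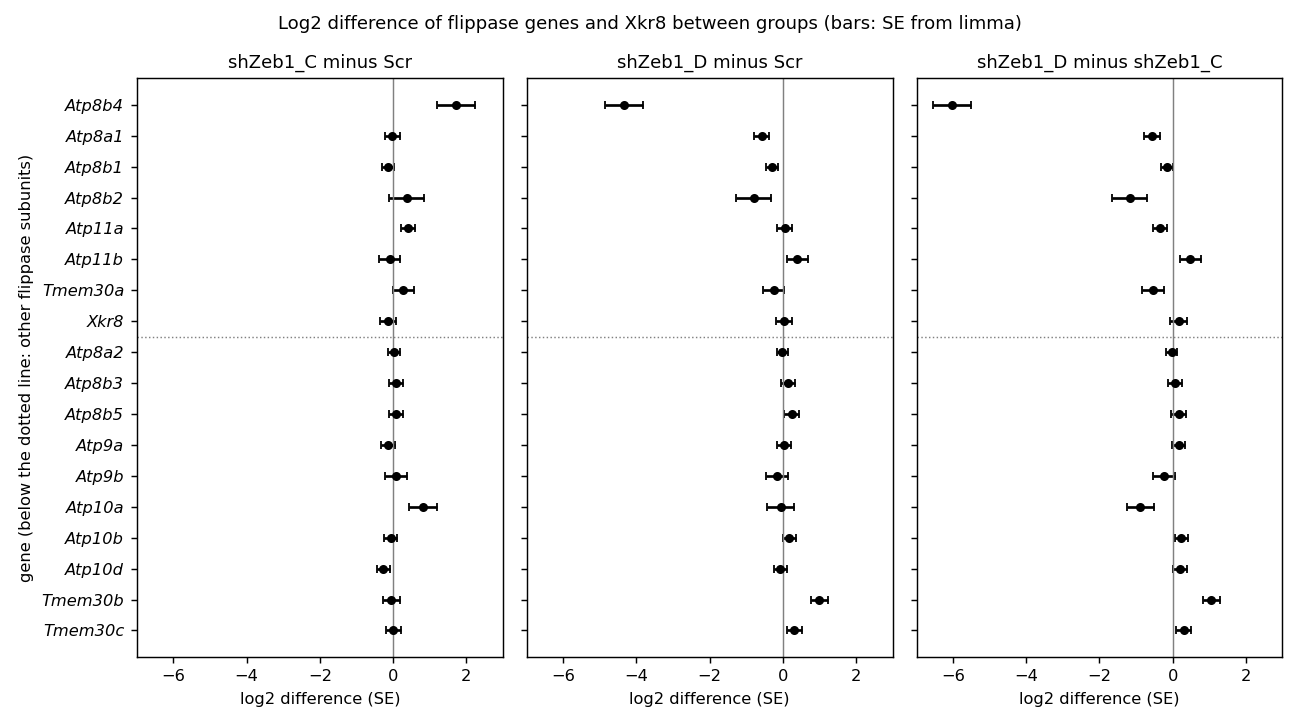
Log2 difference between groups (horizontal axis, with SE from limma as bars) for the 8 genes and, below the dotted line, the other measured flippase subunits (vertical axis). Atp8b4 lies at 1.71, -4.33 and -6.04 in the 3 comparisons, while the other genes lie between -1.17 and 1.05.

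The members also differed in how far they followed the deviation shared by arrays of a group. Tmem30a (r = 0.95), Atp11b (0.94), Atp8b2 (0.88), Xkr8 (0.86) and Atp11a (0.76) were higher on the arrays of set A, whereas Atp8b4 (0.49), Atp8a1 (0.03) and Atp8b1 (-0.32) followed it less. These r values are over 9 deviations from 3 group means and describe the arrays, with no p-value. Over all probe sets, 13.1% had an r above 0.8 and 13% one below -0.8. For Atp8b4, shZeb1_C replicates 10 and 12 gave the largest deviations, 1.26 and -1.28, and every deviation in Scr and shZeb1_D was within 0.31 of the group mean.

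**Figure D3:**
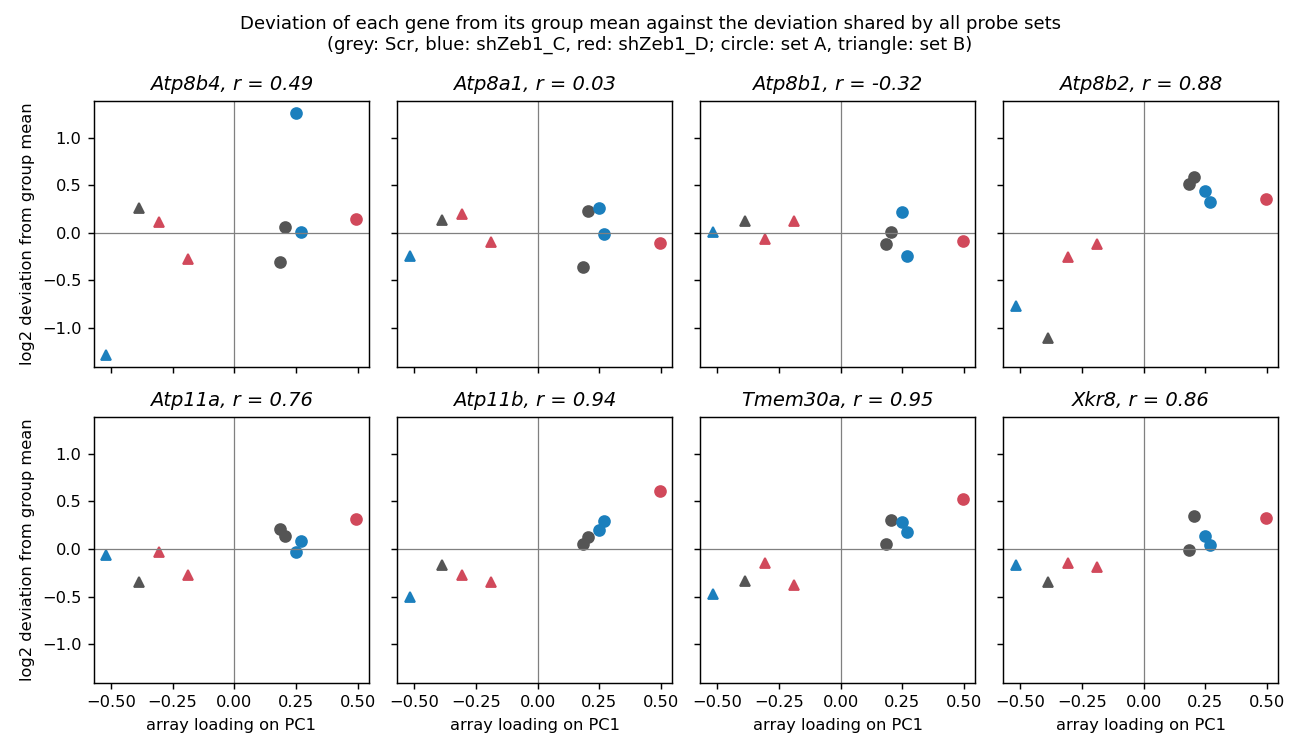
Deviation of each gene from its group mean (vertical axis, log2) against the loading of the array on the first principal component of all deviations (horizontal axis, no unit), 1 point per array, with r over the 9 arrays in each title. Tmem30a and Atp11b rise along the axis (r = 0.95 and 0.94), and the Atp8b4 points of Scr and shZeb1_D lie within 0.31 of 0.

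Among 9298 named genes above the median level, those whose pattern over the 9 arrays was most like that of Atp8b4 were Shtn1 (Pearson r = 0.97), which encodes shootin-1, Camk4 (0.96), a calcium/calmodulin-dependent kinase, Olfm3 (0.95), Slco4a1 (0.94), an organic anion transporter, and Grk5 (0.94), a receptor kinase. All 5 were highest on average in shZeb1_C and lowest in shZeb1_D. Shtn1, for example, had group means of 10.93 ± 0.27 (SD, n = 3), 11.51 ± 0.31 and 8.44 ± 0.57, and Olfm3 of 10.98 ± 0.20, 12.08 ± 0.67 and 8.57 ± 0.38. Their differences between the hairpins ran from -0.85 for Camk4 to -3.51 for Olfm3, smaller in size than that of Atp8b4. The r rests mostly on the group means, since for deviations within groups it was 0.73 for Camk4, 0.56 for Shtn1 and 0.13 for Olfm3.

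The genes most opposite to Atp8b4 were Fgd1 (r = -0.97), Nom1 (-0.95), Tas2r108 (-0.95), a taste receptor, Rfk (-0.95), riboflavin kinase, and Pmpcb (-0.94), a subunit of the mitochondrial processing peptidase. All 5 were highest in shZeb1_D on average. Nom1 had group means of 11.34 ± 0.18 (SD, n = 3), 11.17 ± 0.11 and 12.45 ± 0.14. Those of Rfk were 13.09 ± 0.16, 12.73 ± 0.45 and 13.75 ± 0.10. Of the members, Atp8a1 was the most like Atp8b4 (r = 0.83, and 0.71 for deviations within groups). It was followed by Atp8b2 (0.70, and 0.37 within groups) and Tmem30a (0.63, and 0.56 within groups). The r was 0.54 for Atp8b1 (0.37 within groups), 0.41 for Atp11a (0.01), -0.17 for Xkr8 (0.32) and -0.41 for Atp11b (0.54). The negative r of Xkr8 and Atp11b was thus not seen within groups. The share of all genes that reach such values was not computed.

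**Figure D4:**
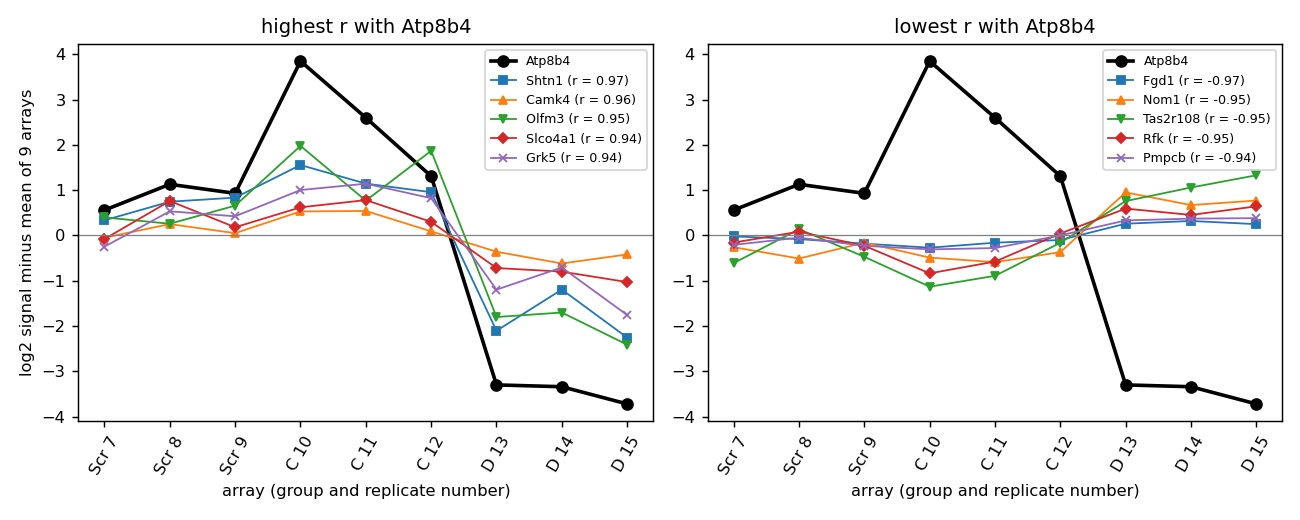
Log2 signal minus the mean of the 9 arrays (vertical axis) on each array (horizontal axis) for Atp8b4 and the 5 genes with the highest (left) and lowest (right) r with it; lines only join the points of 1 gene. The genes on the left are lowest and those on the right highest in the shZeb1_D arrays, with smaller steps than Atp8b4, for example -2.49 for Shtn1 against -4.33 for Atp8b4 in shZeb1_D against Scr.

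The neighbours of Atp8b4 on chromosome 2 gave smaller differences in shZeb1_D. Over 40 neighbouring genes above the median level, 20 on each side, the median difference from Scr was -0.08 in shZeb1_C and -0.19 in shZeb1_D. In shZeb1_D they ranged from -0.90 to 0.71, so that none came near the value of Atp8b4, and limma called 0 of them. In shZeb1_C they ranged from -0.84 to 1.06 with 1 called, and between the hairpins from -1.78 to 1.35 with 1 called. Over all probe sets limma called 0.945% in shZeb1_C against Scr, 0.843% in shZeb1_D against Scr and 0.848% between the hairpins. The nearest neighbours of Atp8b4, Dtwd1 and Gabpb1, differed from Scr by 0.43 and -0.33 in shZeb1_D. The neighbours of Atp11b on chromosome 3 and of Atp8a1 on chromosome 5 had medians of 0.33 and 0.32 in shZeb1_D, and those of Xkr8 on chromosome 4 of -0.20 in shZeb1_C. The neighbours of Xkr8 had a median of -0.14 in shZeb1_D, and the remaining medians against Scr lay between -0.10 and 0.23. Single neighbours differed by more, to -4.42 near Atp11a in shZeb1_D and to 3.61 near Atp8b2 in shZeb1_C. Next to Atp8b2, Il6ra, which encodes an interleukin-6 receptor chain, differed by 1.27 in shZeb1_C and by -1.50 in shZeb1_D, and Hax1, on the other side, by 0.23 and 0.41, beside 0.37 and -0.80 for Atp8b2 itself.

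Other genes of lipid transport, synthesis and recognition were taken from 7 lists, with 69 measured genes. Limma called 0 of them in each of the 3 comparisons, where it called 0.945%, 0.843% and 0.848% of all probe sets (shZeb1_C against Scr, shZeb1_D against Scr and shZeb1_D against shZeb1_C). An unadjusted p under 0.05 was reached by 2, 9 and 6 of the 69, beside 8.77%, 13.6% and 11.7% of all probe sets. At these shares the counts do not set the 69 genes apart. Their median difference was -0.04 and -0.01 against Scr and close to 0 between the hairpins.

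Of 10 other flippase subunits, the 4 with the highest levels were Atp10a, Atp9b, Atp10d and Atp9a. Atp10a, known to flip phosphatidylcholine at the plasma membrane, stood at 10.37, 9.81 and 10.90 in Scr, 11.43, 11.08 and 11.03 in shZeb1_C and 11.13, 9.89 and 9.87 in shZeb1_D. Its shZeb1_C arrays lay above all Scr arrays, but the difference of 0.82 ± 0.37 (SE) was not called (limma adjusted p = 0.593). Atp9b, Atp10d and Atp9a differed from Scr by -0.27 to 0.08 in shZeb1_C and by -0.16 to 0.02 in shZeb1_D. Tmem30b, a second CDC50 subunit singled out after its values were seen, stood at 6.51, 6.57 and 6.59 in Scr, 7.02, 6.23 and 6.28 in shZeb1_C and 7.44, 7.36 and 7.88 in shZeb1_D. Each shZeb1_D array was above all others, by 1.00 ± 0.23 against Scr (limma adjusted p = 0.108) and 1.05 ± 0.23 against shZeb1_C (limma adjusted p = 0.0933). With the array set as a covariate these differences were 1.02 and 1.07 (limma adjusted p = 0.0422 and 0.0371). The sets were made from the deviations of these same values, so these p-values are a description and not a test. Over the settings tried the limma adjusted p ran from 0.0422 to 0.363 and from 0.0371 to 0.319.

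Of 19 genes listed as scramblases or their relatives, Ano6, the calcium-activated phospholipid scramblase TMEM16F, had group means of 12.19 ± 0.21 (SD, n = 3), 12.51 ± 0.20 and 12.01 ± 0.41. Tmem41b and Atg9a, scramblases of the endoplasmic reticulum and of autophagosome formation, and Plscr2 were not called either. Plscr2 had group means of 8.83 ± 0.22, 9.19 ± 0.14 and 9.38 ± 0.13. Its arrays lay above those of Scr by 0.01 at the nearest in shZeb1_C and 0.20 in shZeb1_D. Those of Tmem41b did so too, by 0.13 and 0.20. The list had a median difference of -0.02 in shZeb1_C and 0.11 in shZeb1_D against Scr. Nptn and Bsg encode neuroplastin and basigin, chaperones that carry Xkr8 to the plasma membrane. Nptn stood at 14.97, 14.51 and 14.96 in Scr, 14.33, 14.24 and 14.40 in shZeb1_C and 14.19, 14.21 and 13.54 in shZeb1_D, separate between all groups. Its differences from Scr were -0.49 ± 0.21 (SE; limma adjusted p = 0.562) and -0.83 ± 0.21 (limma adjusted p = 0.138). Bsg differed by -0.42 ± 0.20 and -0.51 ± 0.20, with overlapping arrays.

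**Figure D5:**
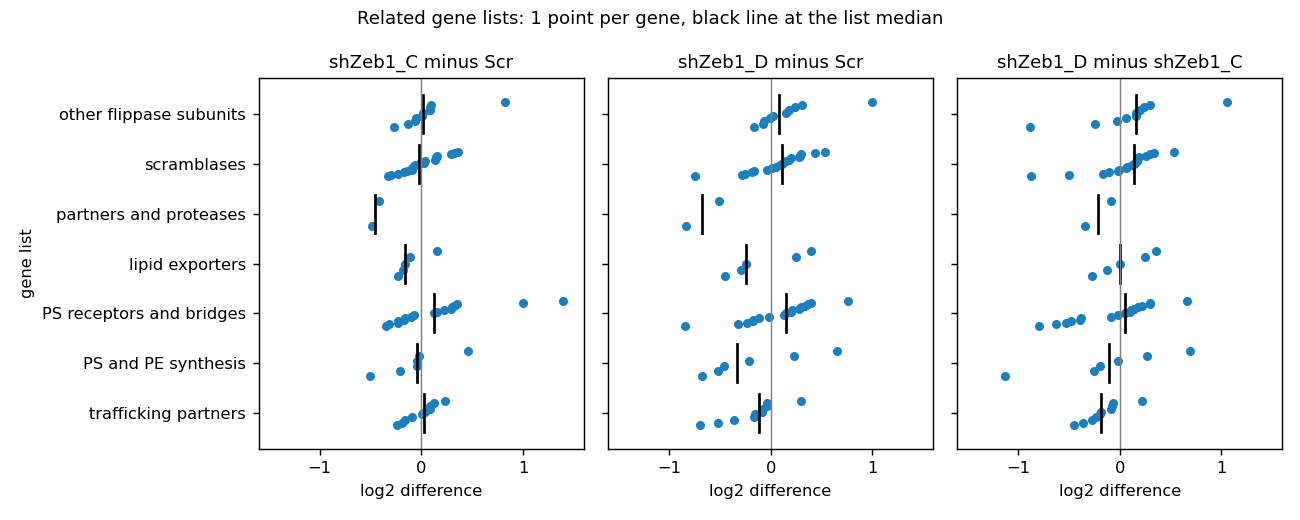
Log2 difference between groups (horizontal axis) for the measured genes of 7 related lists (vertical axis; PS is phosphatidylserine and PE phosphatidylethanolamine), 1 point per gene with a line at the list median. Of the 69 genes limma called 0 in each comparison, and the values lie between -1.13 and 1.39.

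Genes that export lipids to the outer leaflet gave small differences: Abcc1, Abcg1, Abca1 and Abca7, ABC transporters, differed by -0.23 to 0.15 in shZeb1_C and by -0.45 to 0.40 in shZeb1_D against Scr. Of 17 genes for receptors and bridging proteins of phosphatidylserine, Anxa5, the phosphatidylserine-binding annexin, had group means of 10.49 ± 0.45 (SD, n = 3), 11.88 ± 0.78 and 11.25 ± 0.93. Its shZeb1_C arrays lay above those of Scr, yet the difference of 1.39 ± 0.51 (SE) was not called (limma adjusted p = 0.401). Itgav, Cd300lf and Mfge8, an integrin chain, a receptor of myeloid cells and the bridging protein lactadherin, differed by -0.32 to 0.35 against Scr.

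Of 6 genes of phosphatidylserine and phosphatidylethanolamine synthesis, Selenoi, an ethanolamine phosphotransferase, had group means of 12.36 ± 0.42 (SD, n = 3), 12.32 ± 0.29 and 13.01 ± 0.46. Its shZeb1_D difference from Scr was 0.65 ± 0.29 (SE, limma adjusted p = 0.362). With the array set as a covariate it was 0.85 ± 0.18 (limma adjusted p = 0.0306, the lowest of the settings tried, with 0.679 the highest). As the sets were made from these same values, that p-value too is a description. Ptdss1, a phosphatidylserine synthase, differed by -0.02 and -0.21 against Scr. Pcyt2 and Etnk1, enzymes of the ethanolamine route, spread by 0.74 to 1.21 (SD) within groups and followed the shared array deviation closely (r = 0.99 and 1.00). The 10 trafficking partners, among them Snx3, Gbf1, Arl1 and Arfgef1, differed by at most 0.24 in size in shZeb1_C against Scr. Their median difference in shZeb1_D against Scr was -0.11, beside 0.04 over all probe sets.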

How the data were processed

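RNA of 9 arrays (3 per group, grouped by title) was compared. The authors deposited linear RMA signals that had lost their decimal point. RMA and the Transcriptome Analysis Console are named in the submitters' processing notes; versions and genome build are not given in the sources used here. Each of 199854 values was returned to log2 by the decimal place that makes it a multiple of 0.01; the farthest accepted lay 9.1e-13 steps away and the nearest rejected 0.036. Of 22206 probe sets, 19572 had 1 gene symbol, 0 several and 2634 none; symbols were updated by gene identifier through a RefSeq table (GRCm38.p6), which also gave gene order.

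Differences came from limma 3.58.1 in R 4.3.3 (group means, all 9 arrays, empirical Bayes), with Benjamini-Hochberg adjustment over 19572 probe sets and a call at an adjusted p under 0.05. The fit was tested on simulated data with independent noise. These lack the deviation shared by arrays, so they do not show how the fit behaves under it. The members, lists and tests were chosen with earlier results of these data known. Named genes were the members, Zeb1, called genes of the related lists and the 4 with the highest level per list, and the 5 highest and 5 lowest r with Atp8b4, without predicted, olfactory, vomeronasal, micro-RNA and snoRNA genes; Tmem30b, Axl, Il6ra, Hax1 and the marker genes named were chosen after their values were seen. Of 73 listed related genes 69 were measured and the others were not analysed here. Of the marker lists, 4 of 5 haematopoietic, 2 of 9 myeloid, 5 of 9 T and NK, 0 of 4 B, 2 of 4 erythroid and megakaryocyte and 1 of 8 stromal and epithelial genes lay above the median level. Other settings covered dim probe sets, normalization, centring, the arrays in the fit, the variance prior, probe sets per gene and each array left out; the array-set covariate was chosen after seeing the data. The number of arrays limits the precision.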

Additional observations from a re-analysis of the deposited data

Results flagged for a closer look

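Atp8b4 differed between the hairpins by -6.04 (shZeb1_D minus shZeb1_C, log2), and the direct comparison by limma called it. It was 1.71 above Scr with hairpin C and 4.33 below Scr with hairpin D (log2 difference -4.33). As the gene was chosen for this pattern, the call is a description. Zeb1 itself had a mean of 10.25 ± 0.21 (SD, n = 3) with hairpin C and 9.41 ± 0.15 with hairpin D. Its difference between the hairpins, -0.85 ± 0.16 (SE), was not called (limma adjusted p = 0.056).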

How the results depend on the processing

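Atp8b4 kept its direction in all 3 comparisons under every setting tried. Leaving out 1 array gave 1.08 to 2.35 in shZeb1_C against Scr, -4.48 to -4.19 in shZeb1_D against Scr and -6.68 to -5.41 between the hairpins. The call in shZeb1_D against Scr was lost without Scr replicate 9 or shZeb1_D replicate 15 (-4.19), and shZeb1_C against Scr was called without shZeb1_C replicate 12 (2.35); the cause was not tested. Members called ranged from 0 to 1 in both comparisons with Scr and stayed at 1 between the hairpins. Related genes called were 2 in shZeb1_D against Scr and 2 between the hairpins with the array set as a covariate, and 0 to 1 between the hairpins with 1 array left out. Calls with the array-set covariate are a description, because the sets were made from the deviations of the same values. Called probe sets with that covariate were 875, 772 and 700, against 185, 165 and 166 without it. With only the 6 arrays compared in the fit they were 68 in shZeb1_D against Scr and 81 between the hairpins, where fewer arrays estimate the spread. With 1 array left out they ranged from 43 to 214, 14 to 213 and 49 to 162. In shZeb1_C against Scr they were 104, 84 and 43 without Scr 7, 8 or 9, 103 and 92 without shZeb1_C 10 or 11, and 117 without shZeb1_D 15. In shZeb1_D against Scr they were 58, 87 and 14 without Scr 7, 8 or 9, 93 and 103 without shZeb1_C 10 or 11, and 80 and 17 without shZeb1_D 14 or 15. Between the hairpins they were 62 and 84 without shZeb1_C 10 or 11, and 49 without shZeb1_D 15. Leaving out dim probe sets gave no value for Atp8b1, Tmem30b, Axl, Abca1, Abca7 or Abcg1, which lie below the median level. No paired analysis was possible because each replicate number, 7 to 15, belongs to 1 array. Signals near the low end are limited by background that is not known here.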

Other observations

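Axl, a receptor that binds phosphatidylserine through the bridging protein Gas6, stood at 6.08, 5.92 and 5.93 in Scr, at 6.22, 6.40 and 8.32 in shZeb1_C and at 6.32, 6.15 and 6.09 in shZeb1_D. The array at 8.32 was shZeb1_C replicate 12, on which Atp8b4 was lowest within its group (10.88). The shZeb1_C difference from Scr, 1.00 ± 0.46 (SE), was not called (limma adjusted p = 0.599). Gas6 had group means of 4.20 ± 0.21 (SD, n = 3; Scr), 4.50 ± 0.12 (shZeb1_C) and 4.48 ± 0.18 (shZeb1_D), below the median level of all probe sets.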
